A study of Mus musculus with 4 samples.

Results

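The clustered histone genes encode the linker histone H1 and the core histones H2a, H2b, H3 and H4. They were taken as every gene of the count table whose symbol begins with Hist1h, Hist2h, Hist3h or Hist4h. The rule found 68 of 23337 genes, of which 6 were H1, 18 were H2a, 19 were H2b, 12 were H3 and 13 were H4 genes. On the GRCm38 (mm10) assembly, 54 belonged to the Hist1 cluster on chromosome 13, 10 to the Hist2 cluster on chromosome 3, 3 to the Hist3 cluster on chromosome 11, and *Hist4h4* stood alone on chromosome 6.

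RNA-seq was performed on medullary thymic epithelial cells (mTECs), the thymic stromal cells that display tissue-restricted antigens to developing T cells. They were sorted as CD45-EPCAM+UEA-1+Ly51- cells from thymi of C57BL/6 mice at 4 weeks of age. The wild-type group (WT 1 and WT 2) was *Foxn1*-Cre negative, from littermates or age-matched mice. The other group (*Sirt6* cKO 1 and *Sirt6* cKO 2, labelled *Sirt6*-/- in the repository) carried *Foxn1*-Cre and *Sirt6* loxp/loxp, so that the deletion of this chromatin deacetylase is driven by the *Foxn1* promoter, which is active in thymic epithelial cells. Each group had 2 libraries, with 61102704 to 65907745 counts per library. Nothing in the sources used here says how many mice gave each library. *Sirt6* itself had 622 and 755 counts in WT libraries and 882 and 835 in the *Sirt6* cKO libraries (log2 fold change 0.37, SE 0.32, edgeR adjusted p = 0.80), so the gene's total count did not go down with the label. Which exons the loxp sites flank is not given in the sources used here, and a total over the gene does not check a deletion of some exons. Directions below follow the labels of the libraries.

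Most clustered histone genes are replication-dependent: they are transcribed in S phase, when new DNA must be packaged. Their messages typically carry no poly(A) tail and end instead just past a short stem-loop, which is bound by the stem-loop binding protein encoded by *Slbp*. Some of them can also give longer, polyadenylated messages, and such forms are known in cells that have left the cell cycle. Whether RNA was selected by its poly(A) tail, and whether counting used strand, is not given in the sources used here.

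The stem-loop sequences are shown because they are the feature that sets these messages apart. The search used the 16-base consensus of the histone 3′ stem-loop, with any base allowed at some positions, on the sense strand, from the stop codon to the end of the longest coding transcript of each gene in GENCODE M21 (GRCm38). It matched 45 of the 68 histone genes and 36 of 20850 other coding genes (0.173%), among them the variant *H2afx*. The other genes were searched only if 16 or more bases followed the stop codon, a limit not set for the histone genes. Capitals mark the match, lower case the 5 bases on each side, 5′ to 3′ on the strand of the gene.
Hist1h1c: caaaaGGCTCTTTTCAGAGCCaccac
Hist1h1d: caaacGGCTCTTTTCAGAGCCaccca
Hist1h1e: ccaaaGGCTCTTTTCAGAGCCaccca
Hist2h2aa2: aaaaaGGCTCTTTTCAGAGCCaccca
Hist3h2a: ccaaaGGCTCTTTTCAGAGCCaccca
Hist3h2ba: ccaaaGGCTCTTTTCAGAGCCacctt
Hist2h3c2: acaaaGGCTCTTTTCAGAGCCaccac
Hist1h3e: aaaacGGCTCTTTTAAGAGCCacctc
Hist4h4: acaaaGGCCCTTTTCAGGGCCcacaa
Hist1h4j: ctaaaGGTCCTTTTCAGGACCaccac
Hist1h4a: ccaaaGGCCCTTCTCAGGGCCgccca

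The 45 matches took 8 versions. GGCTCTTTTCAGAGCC was found in 25 genes and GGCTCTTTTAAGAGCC in 6, and both were spread over several classes but not found in H4. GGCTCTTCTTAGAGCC was found in 1 H3 gene (*Hist1h3g*) and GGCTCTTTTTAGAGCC in 1 H2a gene (*Hist2h2ac*). The remaining versions were found in H4 genes alone: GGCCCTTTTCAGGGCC in 7 genes, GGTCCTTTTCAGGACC and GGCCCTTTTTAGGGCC in 2 genes each, and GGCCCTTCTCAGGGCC in *Hist1h4a*. All 12 matched H4 genes thus carried a stem that differed from that of the other classes. The first base of the match lay 22 to 59 bases past the stop codon (median 32). A gene without a match, such as *Hist2h2be* or *Hist1h2bc*, lacks these letters in the annotated window and no more can be read from that. In 16 of the 23 genes without a match the annotated transcript had 30 or fewer bases past a stop codon, or no annotated stop codon (the pseudogene). In those, apart from the pseudogene, little or none of the window was there to search. The pseudogene was searched over its whole transcript.

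Clustered histone messages were a small share of these libraries. Together they held 0.0219% to 0.0293% of all counts and 0.0363% to 0.0467% of all TPM (a level per transcript length, scaled to the library). A single gene, *Hist1h1c*, held between 62.9% and 75.2% of the histone counts of a library and between 51.7% and 68.2% of the histone TPM. Of the 68 genes, 8 had no count in any library, 60 had a count in at least 1 library, and 40 had a count in all. In 54 genes every library stayed under 100 counts, and only *Hist1h1c*, *Hist3h2a*, *Hist2h2be*, *Hist2h2aa2* and *Hist4h4* had more than 1000 counts summed over the 4 libraries.

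A filter on low counts left 36 of the 68 genes for testing, namely 4 H1, 9 H2a, 6 H2b, 9 H3 and 8 H4 genes. Since a gene can pass the filter through the group in which it is high, these 36 do not stand for all 68. The 8 genes without a count were *Hist1h2aa*, *Hist1h2af*, *Hist1h2ba*, *Hist1h2bl*, *Hist1h2bm*, *Hist1h2bp*, *Hist1h2bq* and *Hist2h2ac*, all of class H2a or H2b. A count of 0 allows up to 3 counts, which is between 0.0458 and 0.0497 CPM (counts scaled to the normalized library size) in these libraries and covers counting error only. The other 24 untested genes had at most 60 counts in any library and a median level of 0.27 TPM.

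**Figure D1:**
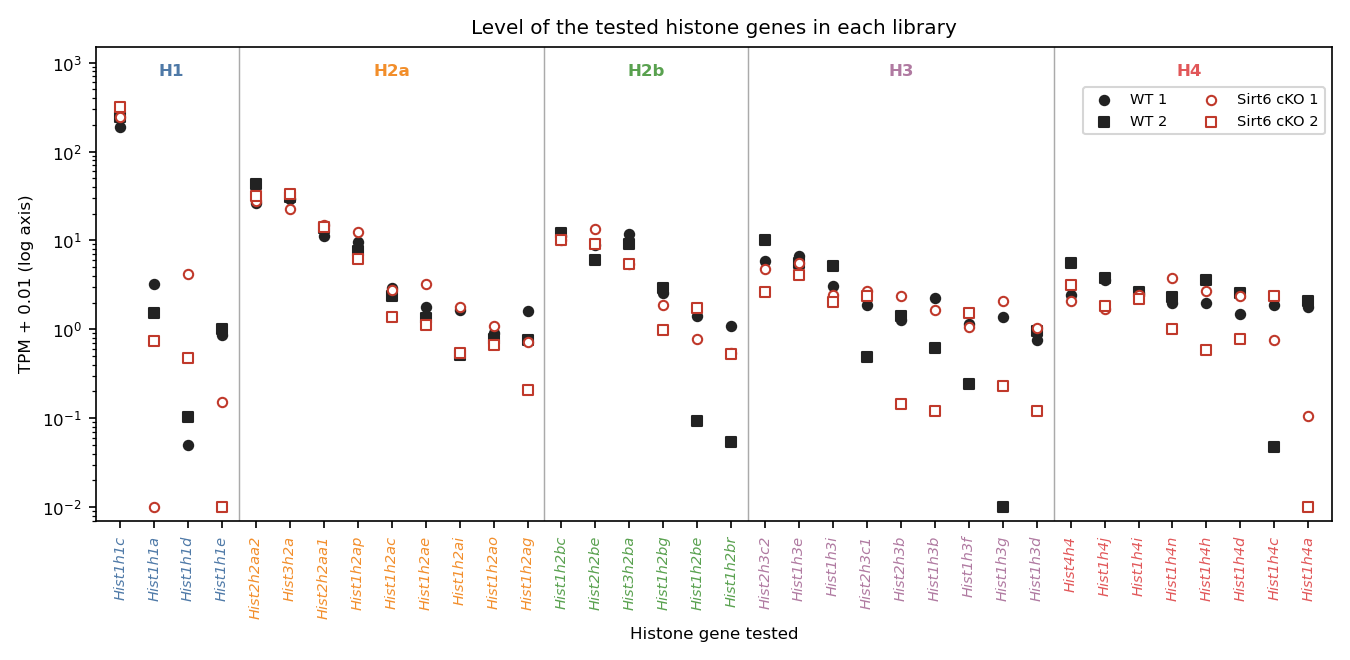
TPM + 0.01 on a log axis for each of the 36 tested histone genes, grouped by class and ordered by mean level. Filled symbols are the WT and open symbols the *Sirt6* cKO libraries, 1 symbol per library, and points at 0.01 are libraries at 0. *Hist1h1c* lies between 188 and 318 TPM in all libraries, far above the rest, and *Hist1h1d* is the gene with both open symbols well above both filled ones.

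The question asked of the comparison is how the transcriptome of mTECs differed when *Sirt6* was targeted, here for the histone genes. In the edgeR quasi-likelihood test, 1 of the 36 tested genes (*Hist1h1d*) was higher in *Sirt6* cKO at an unadjusted p under 0.05, against 5.27% of all genes tested, and 0 were lower, against 3.32% (8.58% in either direction). At an adjusted p under 0.05 there were 0 in either direction, against 0.00539% of all genes. With DESeq2, 1 of 60 histone genes was higher at the unadjusted p, again *Hist1h1d* (background 5.8%), and 0 were lower (background 4.38%, and 10.2% in either direction). *Hist1h1d* was also the 1 of 43 genes that DESeq2 called at the adjusted p, where 1.03% of all genes were called higher and 1.83% in either direction.

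Fold changes scattered around 0 and were imprecise. Of the 36 genes, 14 had a positive and 22 a negative log2 fold change, with a median of -0.18 against 0.00 for all genes tested. The median SE was 1.31 for the histone genes and 0.41 for all genes, so that a change of a few fold was not detectable for a typical histone gene at this depth. Normalized levels of the groups did not overlap in 16 of the 36 genes (44.4%), near the background of 41.9%. Of these, 5 were higher in *Sirt6* cKO (13.9%, background 21.6%) and 11 were lower (30.6%, background 20.3%). The former were *Hist1h1c*, *Hist1h1d*, *Hist2h2aa1*, *Hist2h2be* and *Hist2h3c1*. The latter spanned all classes and included *Hist1h1a*, *Hist1h1e*, *Hist1h2bc*, *Hist3h2ba*, *Hist2h3c2*, *Hist1h4a* and *Hist1h4j*.

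**Figure D2:**
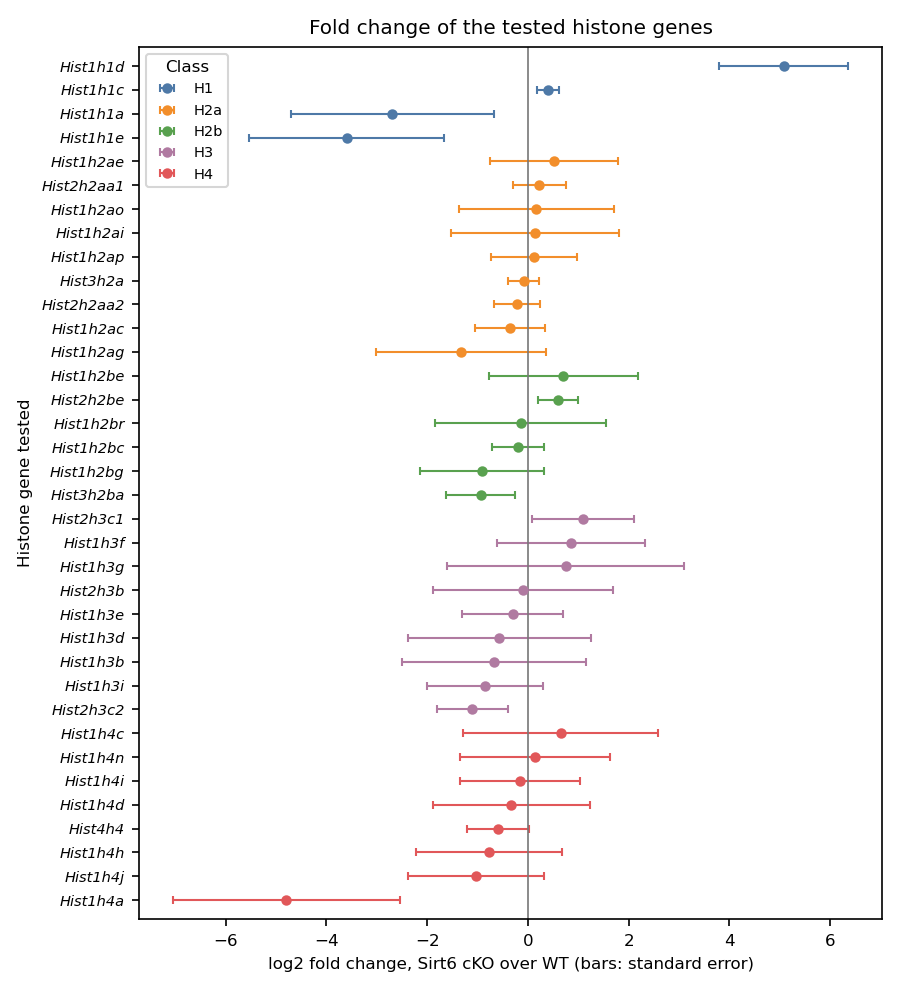
Log2 fold change of *Sirt6* cKO over WT for the 36 tested histone genes, by class, with the SE of the edgeR fit as bars. Most bars cross 0, *Hist1h1d* (5.07, SE 1.28) is alone at the right, and *Hist1h4a* (-4.79, SE 2.25) and *Hist1h1e* (-3.60, SE 1.93) are farthest to the left.

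The linker histone genes differed most among themselves. *Hist1h1c* (chr13:23738808-23740367, + strand) encodes a somatic H1 subtype that is produced outside S phase as well as in it. It had 8838 and 10785 counts in WT libraries and 10598 and 14523 in the *Sirt6* cKO libraries, which is 135 and 169 CPM against 176 and 226 CPM. Both *Sirt6* cKO libraries were above both WT libraries after normalization, but the raw counts overlapped, and *Sirt6* cKO 1 lay close to WT 2. The log2 fold change was 0.40 (SE 0.22, edgeR adjusted p = 0.68), which did not pass the test.

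*Hist1h1d* (chr13:23553262-23560686, + strand) encodes another somatic H1 subtype. It had 4 and 8 counts in WT libraries and 349 and 41 in the *Sirt6* cKO libraries. The groups did not overlap, but *Sirt6* cKO 1 alone held most of the counts. The log2 fold change was 5.07 (SE 1.28, edgeR adjusted p = 0.54), and DESeq2 gave an adjusted p = 0.022. It passed the unadjusted edgeR threshold of 0.05, but no longer did without *Sirt6* cKO 1 (log2 fold change 2.75) or without WT 1 (4.62). Under a minimum of 0.1 TPM in every library the gene was not tested. Of the 50-base stretches of its GENCODE transcript (7425 bases), 2.25% occurred in another gene. The deposited values imply a shorter length of 2985 bases, for which this share was not computed.

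*Hist1h1e* (chr13:23620629-23622558, - strand), also somatic, had 50 and 56 counts in WT libraries and 8 and 0 in the *Sirt6* cKO libraries. *Hist1h1a* (chr13:23763666-23764406, + strand), a subtype associated with dividing cells, had 73 and 33 counts in WT libraries and 0 and 16 in the *Sirt6* cKO libraries. Both genes were lower in each *Sirt6* cKO library than in each WT library. Their log2 fold changes of -3.60 (SE 1.93, edgeR adjusted p = 0.69) and -2.69 (SE 2.01, adjusted p = 0.78) did not pass the test. DESeq2 gave -3.65 and -2.72. In each gene 1 *Sirt6* cKO library was at 0. *Hist1h1e* shares 496 exon bases on the same strand with *Hist1h2be*, so its counts are uncertain. *Hist1h1b*, which was not tested, had 33 and 3 counts in WT libraries and 8 and 8 in the *Sirt6* cKO libraries.

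*Hist1h1t* encodes the H1 of the male germ line, and *Hist1h2aa* and *Hist1h2ba* encode testis core histones. Such genes bear on mTECs because these cells transcribe many genes of other tissues. *Hist1h1t* had 3 and 0 counts in WT libraries and 60 and 4 in the *Sirt6* cKO libraries, while *Hist1h2aa* and *Hist1h2ba* had no count in any library. The *Hist1h1t* counts came almost entirely from *Sirt6* cKO 1. Pooled over the libraries of a group, its normalized ratio was 22.1 (95% exact interval 7.24 to 110), which covers counting error only and says nothing of the spread between libraries. The pseudogene *Hist3h2bb-ps* had its counts in the same library, with 0 and 2 counts in WT libraries and 24 and 1 in the *Sirt6* cKO libraries. DESeq2 gave log2 fold changes of 4.52 (SE 2.85, unadjusted p = 0.11) for *Hist1h1t* and 3.70 (SE 3.89, unadjusted p = 0.34) for *Hist3h2bb-ps*. *Hist1h1d*, *Hist1h1t* and *Hist3h2bb-ps* were set side by side after their values were seen.

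The H2a genes summed to more TPM than any other core class, and their leading members differed little between groups. *Hist2h2aa2* (chr3:96239749-96240276, - strand) had 314 and 485 counts in WT libraries and 307 and 360 in the *Sirt6* cKO libraries (log2 fold change -0.21, SE 0.45). *Hist3h2a* (chr11:58954685-58956830, + strand) had 1735 and 1738 counts in WT libraries and 1235 and 1940 in the *Sirt6* cKO libraries (log2 fold change -0.09, SE 0.30). It shares 708 exon bases with *Trim17* on the same strand, so its counts are uncertain. In both genes the groups overlapped. Per length, *Hist2h2aa2* lay between 26.5 and 43.2 TPM and *Hist3h2a* between 22.4 and 33.3 TPM, ranges that overlap each other and place these genes next after *Hist1h1c*. *Hist2h2aa1* (chr3:96245497-96246082, + strand) had 199 and 229 counts in WT libraries and 242 and 242 in the *Sirt6* cKO libraries (log2 fold change 0.23, SE 0.53). Across the 9 tested H2a genes the log2 fold changes ran from -1.33 (*Hist1h2ag*, 24 and 11 counts in WT, 10 and 3 in *Sirt6* cKO) to 0.51 (*Hist1h2ae*, 38 and 27 counts in WT, 64 and 24 in *Sirt6* cKO). *Hist2h2ab* had 2 counts, both in *Sirt6* cKO 1.

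By mean deposited TPM the H2b genes were led by *Hist1h2bc*, which lay between 10.1 and 12.2 TPM, although *Hist2h2be* had more counts. It had 248 and 254 counts in WT libraries and 206 and 216 in the *Sirt6* cKO libraries (log2 fold change -0.20, SE 0.52). *Hist2h2be* had 699 and 454 counts in WT libraries and 966 and 697 in the *Sirt6* cKO libraries (log2 fold change 0.59, SE 0.39, edgeR adjusted p = 0.73). *Hist3h2ba* had 223 and 162 counts in WT libraries and 94 and 99 in the *Sirt6* cKO libraries (log2 fold change -0.94, SE 0.69, adjusted p = 0.76). *Hist2h2be* was thus higher and *Hist3h2ba* lower in each *Sirt6* cKO library than in each WT library after normalization, and neither passed the test. *Hist1h2be* had 108 and 6 counts in WT libraries and 54 and 125 in the *Sirt6* cKO libraries, so that WT 2 stood apart from the rest. Its counts are uncertain, since it shares 496 exon bases with *Hist1h1e* on the same strand. The untested *Hist2h2bb* had 8 and 7 counts in WT libraries and 1 and 1 in the *Sirt6* cKO libraries.

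The H3 genes lay lower. *Hist2h3c2* (chr3:96238108-96239127, - strand) had 182 and 295 counts in WT libraries and 134 and 79 in the *Sirt6* cKO libraries (log2 fold change -1.10, SE 0.70, edgeR adjusted p = 0.72). Its neighbour *Hist2h3c1* had 104 and 25 counts in WT libraries and 137 and 125 in the *Sirt6* cKO libraries (log2 fold change 1.09, SE 1.01, adjusted p = 0.82). The former was lower and the latter higher in both *Sirt6* cKO libraries, and these were the H3 genes with the lowest and the highest fold change. Every 50-base stretch of *Hist2h3c1* also lies in *Gm20634*, a processed transcript annotated over it on the same strand, and 34.7% occur in another clustered histone gene, so its counts are uncertain. *Hist1h3e* had 82 and 65 counts in WT libraries and 64 and 50 in the *Sirt6* cKO libraries (log2 fold change -0.31, SE 1.001). *Hist2h3b* had 16 and 17 counts in WT libraries and 27 and 2 in the *Sirt6* cKO libraries.

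Among H4 genes, *Hist4h4* (chr6:136801553-136804415, - strand) had the highest level per length together with *Hist1h4j*. *Hist4h4* had 209 and 462 counts in WT libraries and 166 and 268 in the *Sirt6* cKO libraries (log2 fold change -0.59, SE 0.61). *Hist1h4j* had 34 and 34 counts in WT libraries and 15 and 17 in the *Sirt6* cKO libraries (log2 fold change -1.03, SE 1.34). The groups overlapped for *Hist4h4* and not for *Hist1h4j*, and neither passed the test. *Hist1h4a* (chr13:23760692-23761230, - strand) had 17 and 19 counts in WT libraries and 1 and 0 in the *Sirt6* cKO libraries (log2 fold change -4.79, SE 2.25, edgeR adjusted p = 0.63). Its pooled ratio was 34.7 in favour of WT (95% exact interval 5.85 to 1409, counting error only). *Hist1h4c* had 18 and 1 counts in WT libraries and 7 and 22 in the *Sirt6* cKO libraries, with WT 2 lowest. *Hist2h4*, not tested with edgeR, had 0 counts in both WT libraries and 7 and 11 counts in *Sirt6* cKO, at least 3.09-fold higher against a floor of 3 counts per library. That bound covers counting error only. DESeq2 gave *Hist2h4* a log2 fold change of 5.64 (SE 4.80, unadjusted p = 0.24).

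On log2(TPM + 1), limma called *Hist1h1a*, *Hist1h1e* and *Hist1h4a* lower at an unadjusted p under 0.05, with log2 fold changes of -1.31, -0.84 and -1.47 on that scale, and did not call *Hist1h1d* (1.38). These 3 of 36 genes (8.33%) stand against a background of 4.71% lower over all genes, and 0 histone genes were higher against 4.9%. On log2(TPM + 0.1), 3 were lower (background 4.55%) and 1 was higher (background 4.77%). The limma test does not use the depth of the counts, and *Hist1h1a*, *Hist1h1e* and *Hist1h4a* each had a library at 0.

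Summed over genes, the level of the clustered histones followed *Hist1h1c*. All 68 genes together came to 232 ± 23.8 CPM in WT and 279 ± 30.8 CPM in *Sirt6* cKO (mean ± SD, n = 2 each). Without *Hist1h1c* the sum was 79.4 ± 0.60 CPM in WT and 78.1 ± 5.12 CPM in *Sirt6* cKO, a log2 ratio of -0.02, so the difference in the sum lay in that gene. The H1 genes without *Hist1h1c* came to 2.03 ± 0.65 CPM in WT and 4.06 ± 4.22 CPM in *Sirt6* cKO, and the large SD reflects the counts of *Hist1h1d* in *Sirt6* cKO 1.

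The core classes stayed within or near the spread of their libraries. H2a genes summed to 42.7 ± 1.51 CPM in WT and 40.3 ± 4.15 CPM in *Sirt6* cKO. H2b genes summed to 18.2 ± 4.72 and 21.0 ± 3.52 CPM, a log2 ratio of 0.20 that turned to -0.16 when TPM were summed. H3 genes summed to 8.08 ± 0.04 and 6.85 ± 2.12 CPM. H4 genes summed to 8.34 ± 3.22 and 5.87 ± 0.59 CPM, a log2 ratio of -0.51 that was -0.05 without WT 2. No p is given for the sums, since the smallest that exact permutation of 2 and 2 libraries can give, two-sided, is 0.33.

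**Figure D3:**
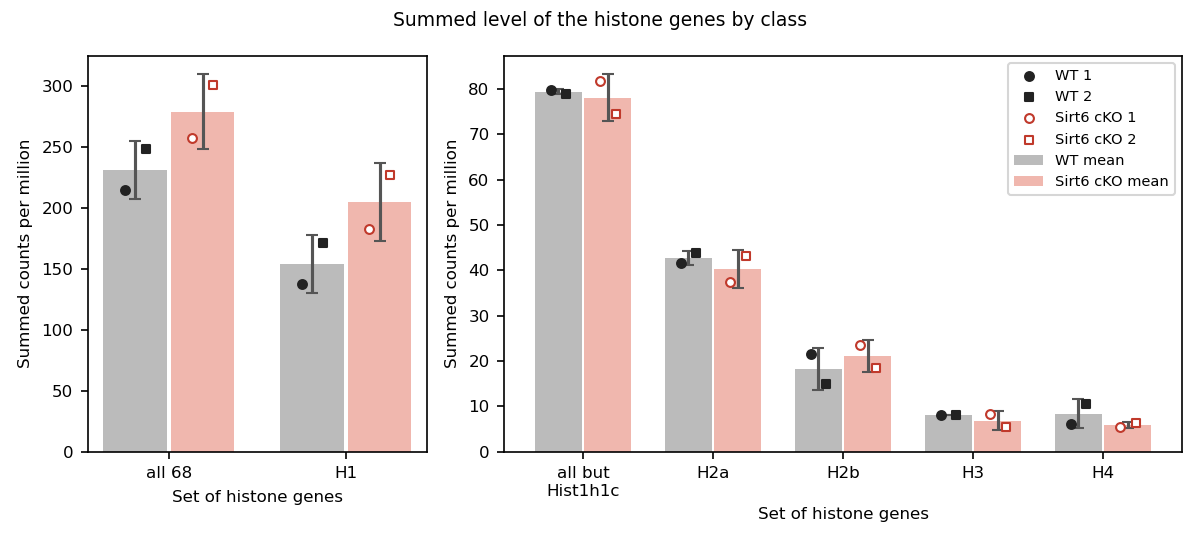
Summed CPM of all 68 histone genes and of the H1 genes (left), and of all but *Hist1h1c* and of each core class (right). Bars are the mean and whiskers the SD of 2 libraries, and points are the libraries. The sum of all 68 genes is higher in both *Sirt6* cKO libraries (257 and 301 CPM) than in both WT libraries (215 and 248 CPM), while without *Hist1h1c* the groups overlap.

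Histone genes whose annotated transcript runs further past the stem-loop had a higher median level. Of the 45 genes with the sequence, 23 had 100 or more annotated bases past it, 20 of them were tested, and their median level was 1.85 TPM. The other 22 had fewer, 9 were tested, and the median was 0.48 TPM. The former group held 87.9% of the histone counts and 76.8% of the histone TPM, and the latter 5.19% and 15.7%. That contrast rests largely on *Hist1h1c*. Of the counts and TPM of all the other histone genes, the 22 remaining genes with long ends held 60.7% and 43.3% (median 1.82 TPM), and the 22 with short ends 16.8% and 38.5%. *Hist1h1c* (840 bases past the stem-loop), *Hist3h2a* (1643) and *Hist4h4* (2445) were in the former group, and *Hist2h2aa2* and *Hist2h2aa1* (35 each) and *Hist1h2ap* (3) were exceptions with high levels and short ends. Spearman's rho between level and bases past the stem-loop was 0.36 over the 45 genes, given as a description, since the genes share libraries and near-identical sequence. The limit of 100 bases was chosen after the values were seen.

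**Figure D4:**
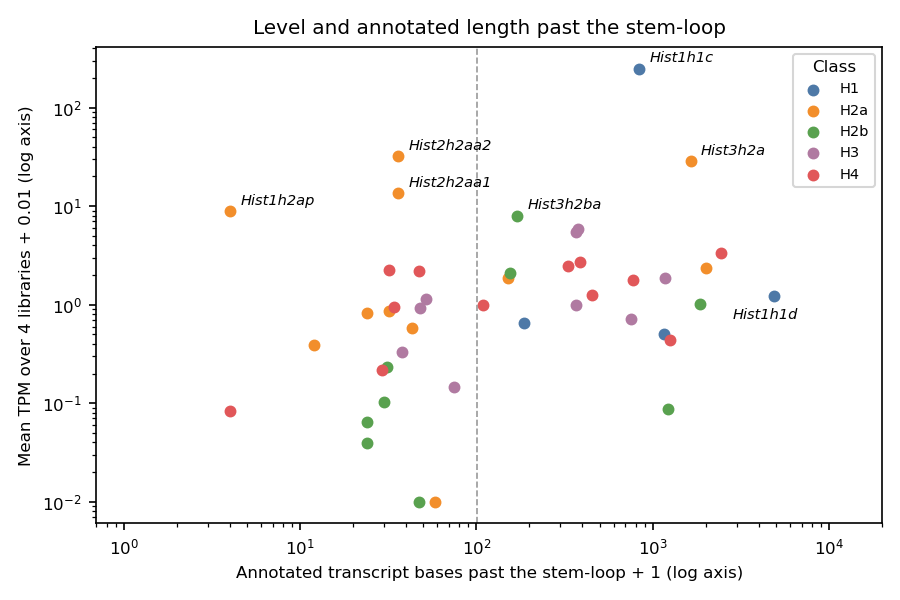
Mean TPM over the 4 libraries (plus 0.01) against the annotated bases past the stem-loop (plus 1), both on log axes, for the 45 histone genes with the sequence, coloured by class. The dashed line marks 100 bases, and the named genes are the 6 with the highest level and *Hist1h1d*. High levels are found on both sides of the line, with *Hist1h1c* highest on the right and *Hist2h2aa2* highest on the left.

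These lengths come from GENCODE, while the annotation behind the counts is not given in the sources used here. The ratio of count to TPM gives the length that the deposited values imply. For 15 of 23 histone genes with at least 50 counts in a library it was within 5% of the GENCODE length, among them *Hist1h1c* (1562 against 1560 bases), *Hist2h2be* (2620 against 2620) and *Hist4h4* (2888 against 2863). It was shorter for *Hist1h1d* (2985 against 7425), *Hist1h3e* (413 against 836), *Hist1h2bc* (730 against 1156) and *Hist2h2aa2* (394 against 528), and longer for *Hist1h2br* (2160 against 1256). The TPM of these genes, and their rank by TPM, depend on the length used. The summed level in both length groups was close between conditions apart from *Hist1h1c*: genes with fewer than 100 bases past the stem-loop summed to 13.5 ± 1.85 CPM in WT and 13.04 ± 2.01 CPM in *Sirt6* cKO.

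Near-identical copies limit how counts can be assigned. In 34 of the 68 genes more than 50% of the 50-base stretches occur in another gene, and in 30 of them in another clustered histone gene. Genes were joined wherever 1 shared over 50% of its stretches with another, and such links were chained. Summing joined genes before the test removes the split among them, but not that with genes outside the sum. Chaining also took in genes with mostly unshared sequence, such as *Hist1h2ac* (11.6% shared with other clustered histone genes) and *Hist1h2bc* (29.4%). The 11 H2a genes grouped with *Hist1h2ab* had 459 and 331 counts in WT libraries and 469 and 229 in the *Sirt6* cKO libraries (log2 fold change -0.11, SE 0.53). The 11 H2b genes grouped with *Hist1h2bc* had 481 and 321 counts in WT libraries and 331 and 391 in the *Sirt6* cKO libraries (-0.10, SE 0.43). The 3 Hist2 H3 genes had 302 and 337 counts in WT libraries and 298 and 206 in the *Sirt6* cKO libraries (-0.28, SE 0.50), so the opposite directions of *Hist2h3c1* and *Hist2h3c2* nearly cancelled.

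The 6 H4 genes grouped with *Hist1h4a* had 106 and 124 counts in WT libraries and 59 and 49 in the *Sirt6* cKO libraries. This was the only one of the 7 summed groups whose normalized levels did not overlap, with a log2 fold change of -1.03 (SE 0.89, edgeR adjusted p = 0.80). Of all genes tested, 41.9% did not overlap between groups, and 20.3% were lower in *Sirt6* cKO without overlap. The pair *Hist2h2aa1* and *Hist2h2aa2* had 513 and 714 counts in WT libraries and 549 and 602 in the *Sirt6* cKO libraries (-0.04, SE 0.36).

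**Figure D5:**
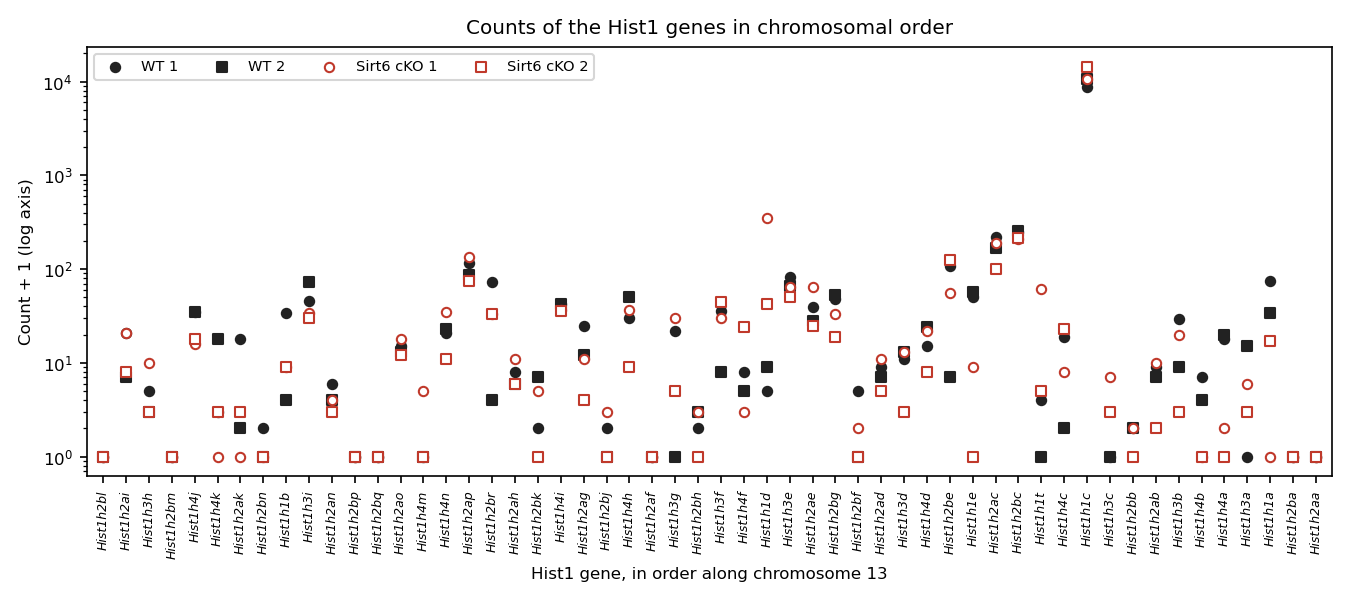
Counts plus 1 on a log axis for the 54 Hist1 genes in their order along chromosome 13, 1 symbol per library (filled WT, open *Sirt6* cKO). Most genes lie under 100 counts in every library, *Hist1h1c* lies at 8838 or more, and near the right end *Hist1h4b*, *Hist1h4a* and *Hist1h1a* have open symbols under filled ones.

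Along the Hist1 cluster, high and low genes were mixed. *Hist1h4b* (6 and 3 counts in WT, 0 in both *Sirt6* cKO libraries), *Hist1h4a* and *Hist1h1a* lie next to each other with *Hist1h3a* between them, and all but *Hist1h3a* (0 and 14 counts in WT, 5 and 2 in *Sirt6* cKO) were lower in both *Sirt6* cKO libraries. This run was noticed after the values were seen. Over all genes tested, 20.3% were lower in both *Sirt6* cKO libraries than in both WT libraries. *Hist1h1c*, which precedes these genes on the chromosome, did not share the direction.

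Libraries differed within groups as well as between them. The median deviation of the 36 genes from their mean over the 4 libraries, on a log2 scale with 0.1 added to each CPM, was 0.17 for WT 1 and 0.06 for WT 2, against 0.14 for *Sirt6* cKO 1 and -0.40 for *Sirt6* cKO 2. *Sirt6* cKO 2 was thus the lowest by this median over the 36 genes. It was the highest for *Hist1h1c* and for the summed level of all 68 genes (301 CPM). The 33 mitosis genes lay at 0.54 and -0.44 in WT and at 0.32 and -0.41 in *Sirt6* cKO, and the 54 DNA replication genes at 0.35 and -0.18 in WT and at 0.12 and -0.26 in *Sirt6* cKO. Library 1 was above library 2 in both groups for all 3 sets, and the part of this difference in the histone counts was not tested.

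The machinery that makes and handles histones was measured more precisely, with a median SE of 0.31 for the first list below. Of 37 genes for histone mRNA transcription and 3′ end processing, 2 were higher and 0 lower at the unadjusted p (median log2 fold change 0.08). At that p, 5.27% of all genes tested were higher and 3.32% lower. The higher ones were *Zcchc6*, a terminal uridyltransferase (16208 and 16152 counts in WT, 20403 and 23441 in *Sirt6* cKO, log2 fold change 0.49, SE 0.15, edgeR adjusted p = 0.54), and *Cpsf2*, a subunit of the cleavage complex (3285 and 2540 counts in WT, 4082 and 4562 in *Sirt6* cKO, 0.62, SE 0.23, adjusted p = 0.56). *Slbp* had 29789 and 17357 counts in WT libraries and 17896 and 20382 in the *Sirt6* cKO libraries (-0.24, SE 0.27, adjusted p = 0.86). *Npat*, the coactivator of histone transcription, had 2345 and 1479 counts in WT libraries and 3203 and 2754 in the *Sirt6* cKO libraries (0.70, SE 0.31, adjusted p = 0.62). The other genes listed first, *Casp8ap2* and *Lsm11*, had log2 fold changes of -0.11 (SE 0.48) and -0.29 (SE 1.08). None of the 37 passed the adjusted p in edgeR or DESeq2.

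Of the 12 tested replacement and other variant histones, 1 was higher and 0 were lower (median -0.19, background 5.27% higher and 3.32% lower). It was *H1foo*, the linker histone of oocytes, with 1131 and 933 counts in WT libraries and 2599 and 2768 in the *Sirt6* cKO libraries. Both *Sirt6* cKO libraries were far above both WT libraries (log2 fold change 1.43, SE 0.26, edgeR adjusted p = 0.54), and with DESeq2 it was the 1 gene of this list past the adjusted threshold. *H3f3b*, which encodes the replacement histone H3.3, had 217672 and 166598 counts in WT libraries and 124784 and 174418 in the *Sirt6* cKO libraries, and its TPM was above that of *Hist1h1c* in each library. The variants *H2afz* (-0.49, SE 0.25), *H3f3a* (0.15, SE 0.23) and *H2afx* (-0.25, SE 0.38) did not pass. The spermatid linker histone *Hils1*, named after its values were seen, had no count in WT and 9 and 8 counts in *Sirt6* cKO, at least 2.95-fold higher against the same floor.

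Of 29 histone chaperone genes, 1 was higher (*Cabin1*, log2 fold change 0.49, SE 0.19) and 1 lower (*Hjurp*, the chaperone of the centromeric H3, -0.99, SE 0.29). Of 54 DNA replication genes, 0 were higher and 2 lower (*Rpa1*, -0.78, SE 0.23, and *Rfc2*, -0.48, SE 0.17), with a median of -0.13. *Chaf1a*, *Chaf1b*, *Asf1b* and *Nasp*, listed first among the chaperones, lay between -0.62 and 0.53, and *Pcna*, *Mcm2*, *Mcm6* and *Rrm2* between -0.40 and -0.01, none past the threshold. Of 33 mitosis genes none passed in either direction (median -0.12, DESeq2 0 as well), and *Mki67*, *Top2a*, *Cdk1* and *Ccnb1* lay between -0.31 and 0.39. The calls in these 3 lists are at the unadjusted edgeR p, at which 5.27% of all genes tested were higher and 3.32% lower. None of the genes in these 3 lists passed the adjusted p in edgeR or DESeq2.

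The sort held the defining mTEC genes at a summed level of 23208 to 25759 TPM in all libraries, and it also held genes of other cells. Most of that sum was *H2-Aa* (14864 to 16768 TPM), an MHC class II gene that dendritic cells and B cells also express. Of the 13 mTEC genes, *Epcam*, *Aire* and *Cd80* were higher and *Ccl21a* was lower at the unadjusted p of edgeR, genes named after their values were seen. At that p, 5.27% of all genes tested were higher and 3.32% lower. *Ccl21a*, a chemokine of mTECs, had 1258 and 3154 TPM in WT libraries and 346 and 497 TPM in the *Sirt6* cKO libraries. All 13 thymocyte genes were present, at 1323 to 1782 TPM in WT and 916 to 1448 TPM in *Sirt6* cKO, with 1 lower at the unadjusted p. The 11 macrophage and dendritic cell genes in the table summed to 6807 to 11481 TPM in WT and 4214 to 4515 TPM in *Sirt6* cKO, and 6 of them were lower. Most of that sum was *Lyz2* (5941 to 9532 TPM in WT, 3664 to 3955 TPM in *Sirt6* cKO). *Csf1r*, *Itgax*, *Flt3*, *Xcr1* and *Siglech* were not called in either direction. The 8 genes of cortical epithelial cells summed to 1068.6 to 1120.5 TPM in WT and 785 to 1103 TPM in *Sirt6* cKO, with 2 higher. Fibroblast genes (6) summed to 605 to 686 TPM in WT and 543 to 629 TPM in *Sirt6* cKO, with 1 lower. Over all libraries the 5 B cell genes lay at 162 to 244 TPM and the 5 endothelial genes at 40.2 to 68.2 TPM, with 0 called. None of these markers was at 0 in all libraries, and the part of such cells in the histone counts was not tested. In bulk RNA, fewer cells that express a histone gene and less of its RNA per cell cannot be told apart.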

How the data were processed

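Per the labels and the study's methods, reads were trimmed (Trim Galore), mapped to mm10 (HISAT2 2.1.0) and quantified per gene (StringTie 1.3.3), with versions from the submitters' processing notes. The authors deposited a table of raw, whole-number counts and, for each library, TPM values from StringTie. Each deposited TPM file closes with an unnamed line equal to 100% of the genes' total, which was left out, and because of that line the values were entered as a score in the check of units. The gene annotation and strand setting are not given in the sources used here.

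Counts were tested with edgeR 4.0.16 in R 4.3.3 (TMM, filterByExpr with a minimum count of 10 and total of 15, glmQLFit, glmQLFTest), fitted on all 18547 genes that passed, with Benjamini-Hochberg adjustment over all of them. The biological coefficient of variation was 0.557. DESeq2 1.42.0 and limma 3.58.1 on log2(TPM + 1) and log2(TPM + 0.1) were alternatives. The fits were tested on simulated data with a lower dispersion than the real counts. Changes were placed only in genes with more counts than most histone genes had, so that test does not cover histone genes with few counts. With 3 or fewer counts in a group, pooled ratios carry exact 95% intervals. Transcripts and coordinates are GENCODE M21, GRCm38.

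The histone genes and the lists were chosen with earlier results of these data known. By the rule, named histone genes were those past the unadjusted p of 0.05, in each class the 2 with the highest mean TPM and the largest and smallest fold change, *Hist1h1t*, *Hist1h2aa* and *Hist1h2ba*, and every member outside Hist1. Some others, such as *Hist1h1b*, *Hist1h3a*, *Hist1h4b*, *Hist1h2ap* and *Hist1h2br*, were named outside this rule. Genes outside them were *Sirt6*, the first 4 of each list and at most 3 per direction past the unadjusted p. The study's methods call the samples of a group independent but do not say that they came from separate mice, so p-values measure only the spread between these samples. Replicate libraries differed beyond sampling noise (median chi-square per gene 40.1 in WT and 28.5 in *Sirt6* cKO).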

Additional observations from a re-analysis of the deposited data

How the results depend on the processing

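The counts of histone genes past a threshold and the summed levels rest on 2 libraries a group. *Hist1h1d* was the 1 histone gene higher at the unadjusted p, and that count was 0 under a minimum of 0.1 TPM in all libraries (the gene was then not tested), with limma on log2(TPM + 1) and with the replicate block. With limma 3 genes (8.33%) were lower under both pseudocounts, against 4.71% and 4.55% of all genes. At the adjusted p DESeq2 called 1 higher. Leaving out 1 library gave 0 to 1 genes higher and 0 to 1 lower. The median log2 fold change over the 36 genes was -0.18 and ran from -0.70 to -0.036 when 1 library was left out. That of H1 (-1.14) was -0.36 with DESeq2, -0.35 with the TPM minimum, -0.23 with limma on log2(TPM + 1), -0.34 without a filter and -1.78 with the block, and that of H3 (-0.31) was -0.80 with limma on log2(TPM + 0.1) and -0.81 with the block. That of H2b (-0.17) was -0.63 with DESeq2. Without 1 library the class medians ran from -0.42 to 0.24 for H2a, from -0.52 to 0.31 for H2b, from -1.34 to 0.19 for H3 and from -1.02 to -0.20 for H4. The log2 ratio of the sum without *Hist1h1c* (-0.02) was -0.106 with upper quartile factors, -0.113 with library size alone and -0.17 with TPM, an alternative chosen after seeing the data that also gave -0.16 for H2b. Without 1 library it ran from -0.092 to 0.042, that of H3 from -0.60 to 0.048 and that of H4 from -0.86 to -0.048.

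Of the 37 histone mRNA genes, 5 were higher with DESeq2, 1 with library size alone, 0 with upper quartile factors, and 0 to 3 were higher and 0 to 1 lower without 1 library. Of the chaperones, 2 were higher with DESeq2, 0 with library size alone, upper quartile factors, the block and limma, and 0 were lower with limma, and without 1 library 0 to 1 were higher and 0 to 2 lower. Of the DNA replication genes, 4 were lower with DESeq2, 6 with library size alone and upper quartile factors and 1 with the block, and without 1 library 0 to 4 were higher and 0 to 3 lower. Of the variants 1 was lower with the block and 0 to 2 without 1 library, and of the mitosis genes 0 to 3 were higher and 0 to 2 lower without 1 library. The causes were not tested. Over all genes, DESeq2 called 5.8% higher and 4.38% lower at the unadjusted p. Library size alone called 721 genes higher and 838 lower of 18547. DESeq2 called 200 genes higher and 154 lower at the adjusted p over all genes, against 1 and 0 with edgeR, and library size alone shifted the median of all genes by -0.09.

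The replicate numbers are shared by both groups. Over all 18547 genes tested, same-numbered libraries did not deviate together (r = -0.05). In the histone, DNA replication and mitosis sets, however, library 1 was above library 2 in both groups. The block pairs numbers only. With it *Hist1h1d* no longer passed the unadjusted p (log2 fold change 4.38).

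Without 1 library the log2 fold change turned its sign in some genes that did not pass the test. It ran from -0.42 to 1.04 for *Hist1h2ae*, -0.43 to 0.17 for *Hist3h2a*, -0.53 to 0.16 for *Hist2h2aa2*, -0.21 to 3.87 for *Hist1h2be*, -2.96 to 0.77 for *Hist2h3b*, -0.35 to 3.69 for *Hist1h4c* and -1.09 to 0.12 for *Hist4h4*. In the lists it ran from -0.57 to 0.15 for *Slbp*, -0.62 to 0.65 for *Casp8ap2*, -1.80 to 0.40 for *Lsm11*, -0.16 to 0.37 for *H3f3a*, -0.72 to 0.16 for *H2afx*, -0.17 to 0.094 for *Chaf1b*, -0.46 to 0.12 for *Pcna*, -0.33 to 0.25 for *Mcm2*, -0.80 to 0.22 for *Rrm2*, -0.13 to 1.004 for *Mki67*, -0.51 to 0.61 for *Top2a*, -0.90 to 1.18 for *Cdk1* and -0.85 to 0.32 for *Ccnb1*.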
